A study of Mus musculus with 14 samples.

Results

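Gm10800, Gm10801, Gm21738 and Gm10722 are 4 predicted mouse gene models whose exons are made of satellite-like repeat sequence. They were chosen by name, with their counts and their differences between groups already known. They make up 4 of the 19959 gene symbols listed over the tables of the series, which hold 15319, 19825 and 15216 genes in its 3 experiments, and all 4 have a row in each table. Because measured values chose them, their levels and fold changes are described here without p-values. Reads from near-identical repeats can be assigned to one model or another by the counting, so each model's own count is uncertain and the sum of the 4 is given beside it.

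The libraries came from CD8 T cells that infiltrated E.G7 tumors, which grow from a mouse lymphoma line that carries the chicken ovalbumin gene. In the first experiment, Bcl6-RFP mice, which report expression of the transcriptional repressor Bcl6, received E.G7 cells under the skin, and on day 21 their tumor-infiltrating lymphocytes (TILs) were sorted into Bcl6+, TIM-3+ and DN cells (the labels give DN with no explanation). In the other experiments, OT-I cells, whose transgenic T cell receptor recognises an ovalbumin peptide, were recovered from E.G7 tumors about day 8 after transfer, each overexpressing population having been injected together with its control. One of these compared Prdm1-overexpressing cells with a control labelled Prdm1neg, and the other Bcl6-overexpressing cells with a control labelled Bcl6neg. Prdm1 encodes Blimp-1, a transcriptional repressor that opposes Bcl6. The labels do not give the age of the mice, the vector, or whether animals were pooled. Each of the 7 groups has 2 libraries, and nothing says that they came from separate animals, so the spread between them may be technical. Bulk libraries cannot tell fewer expressing cells from less RNA per cell.

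Satellite DNA is repeated head to tail over long stretches of chromosomes. In the mouse, major satellite repeats form the pericentromeric heterochromatin next to each centromere, which is packed by histone H3 lysine 9 methylation, HP1 proteins and DNA methylation and is kept largely silent. Satellite transcripts tend to stay in the nucleus, can form double-stranded RNA, and accumulate when heterochromatin is disturbed and in some stressed or transformed cells. Short islands of such repeats also lie elsewhere in the genome, and gene prediction has placed models on some of them.

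In the GENCODE M21 annotation of GRCm38 (mm10, the build named in the submitters' processing notes), the 4 models are annotated as protein coding, with no UTR records. Gm10801 lies on chromosome 2 from 98662237 to 98664083 on the plus strand, in 4 exons. Gm10800 lies 2463 bases further on, from 98666547 to 98667301 on the minus strand, in 5 exons, so the 3′ ends of this pair face each other. Gm21738 lies on chromosome 14 from 19415857 to 19418930 on the minus strand, in 6 exons. Gm10722 lies on chromosome 9 from 3000922 to 3002330 on the plus strand, in 4 exons, and 0 genes start before it on that strand. A noncoding gene, Gm26870, runs over it on the minus strand from 3000282 to 3038313. Gaps between exons of the members were as short as 1 base in Gm10800.

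Stretches of 234 bases from the 4 spliced transcripts show what the reads had to be told apart by. Capitals mark a run of 42 bases that all 4 transcripts hold without a mismatch, and each stretch starts there (base 1 of Gm10800, 69 of Gm10801, 231 of Gm21738 and 201 of Gm10722).
Gm10800: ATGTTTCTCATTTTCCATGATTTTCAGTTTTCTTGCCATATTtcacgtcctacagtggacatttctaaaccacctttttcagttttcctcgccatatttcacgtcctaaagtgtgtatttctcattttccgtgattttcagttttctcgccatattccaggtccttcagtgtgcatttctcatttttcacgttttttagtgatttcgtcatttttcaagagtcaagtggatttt
Gm10801: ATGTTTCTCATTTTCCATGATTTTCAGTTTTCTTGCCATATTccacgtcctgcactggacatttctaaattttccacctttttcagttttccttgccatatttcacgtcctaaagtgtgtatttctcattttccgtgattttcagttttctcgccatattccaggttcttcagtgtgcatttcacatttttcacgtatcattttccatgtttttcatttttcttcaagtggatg
Gm21738: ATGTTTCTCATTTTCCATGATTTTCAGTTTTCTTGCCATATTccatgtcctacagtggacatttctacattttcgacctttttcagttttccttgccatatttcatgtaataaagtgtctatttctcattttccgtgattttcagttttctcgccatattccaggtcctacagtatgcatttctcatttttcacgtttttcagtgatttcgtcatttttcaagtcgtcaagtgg
Gm10722: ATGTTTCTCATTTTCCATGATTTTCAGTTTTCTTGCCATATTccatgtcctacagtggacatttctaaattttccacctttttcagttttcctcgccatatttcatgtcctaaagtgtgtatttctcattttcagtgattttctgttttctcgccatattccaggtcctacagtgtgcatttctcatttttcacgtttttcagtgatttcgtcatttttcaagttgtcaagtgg

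Over these stretches, the chromosome 14 and chromosome 9 models were the closest pair, with 95.73% identical columns in a pairwise alignment. Gm10800 was 92.47% identical to Gm10722 and 90.38% identical to Gm21738. Gm10801, the neighbour of Gm10800, was 88.43% identical to it and 87.55% identical to Gm21738, the lowest of the 6 pairs. The transcripts are poor in G and C, at 34.33% in Gm10801 to 35.91% in Gm10800, against a median of 47.07% over all annotated genes. They are asymmetric as well: T made up 45.76% to 47.42% of the bases and A 17.97% to 18.36%, with no run of A longer than 3 bases. Each transcript resembled itself best when shifted by nearly the same distance, 234 bases in Gm21738 and Gm10722, 231 in Gm10801 and 225 in Gm10800. At that shift 62.42% and 65.23% of bases matched in the first 2 and 52.75% and 56.32% in the others, against a median of 30.61% to 31.9% over shifts of 100 to 300 bases. Each transcript thus holds an internal repeat, as its label has it. No satellite consensus was used here, so a match to the major satellite was not tested.

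The same sequence recurs in other gene models. Of 55341 annotated genes, 13 share at least 1 word of 31 bases with the members' exons: the 4 members and 9 others, which all lie on chromosome 9 between 3000282 and 3038316. Gm10721 (57.59% of its words) and Gm10718 (54.65%) hold at least 50% of their words in the members and lie just inside that limit, with Gm17535 (46.23%) and Gm10720 (42.86%) just outside it. Gm10719, Gm11168, Gm10715 and Gm10717 share 21.32% to 28.52%, and the antisense gene Gm26870, which has no row in the tables, shares 28.06% on the opposite strand. Of the words of Gm10722, 76.76% also occur in other genes, against 36.19% for Gm10801, 41.99% for Gm10800 and 43.56% for Gm21738. The limit of 50% had been set for naming related models, and the models below it were added after their values were seen. Whether reads that fit several places were counted, and whether strand was used, is not given in the sources used here.

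Totals ran from 18309162 to 22322079 counts per library. The members passed the filter used for the fits, a mean of at least 1 FPKM (a gene's fragments divided by exon length and by the library's total), in all 3 experiments. The genes that define the groups followed their labels. Bcl6 was at 424 and 446 CPM (counts scaled to a common library total) in Bcl6+ TILs against 13.7 to 97.5 in the other TILs, and at 66.6 and 90.7 against 3.94 and 4.1 with Bcl6 overexpression. Prdm1 was at 146 and 192 CPM against 93.1 and 112 with Prdm1 overexpression, and Havcr2, which encodes TIM-3, at 1205 and 1249 in TIM-3+ TILs against 34.6 to 207. Of the CD8 T cell markers, Cd8a, Cd8b1, Cd3e and Cd3g were all present in each library, the lowest value among them being 193 CPM for Cd8b1. Trac had no row. Gzmb, also on that list, differed between TIL groups, at 86 and 55.7 CPM in Bcl6+, 390 and 391 in DN and 2187 and 2098 in TIM-3+ cells. In OT-I libraries Gzmb was between 794 and 3104 CPM. The Bcl6-overexpressing libraries stood apart from the 6 other OT-I libraries, as set out before their comparison below.

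Gm10800 was among the most abundant genes of the TIL libraries by count, ranking 9 and 10 of 15319 in Bcl6+ cells, 14 and 18 in DN cells, and 19 in both TIM-3+ libraries. Per length, on the FPKM scale, it ranked 2 to 5 in the TILs, 1 in both Prdm1 controls, 2 and 8 in Prdm1-overexpressing cells and 3 and 4 in the Bcl6 controls. In the Bcl6-overexpressing libraries its FPKM rank was 3929 and 4564. The deposited FPKM values divide the counts by the annotated exon lengths, 660 bases for Gm10800, 504 for Gm10801, 681 for Gm21738 and 651 for Gm10722, since the ratio of count to FPKM between members equalled the ratio of those lengths in each experiment. In FPKM, Gm10800 stood above the other members in each library: 2.54 to 4.72 times Gm10801 and 3.67 to 5.36 times Gm21738 outside the Bcl6-overexpressing libraries.

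**Figure D1:**
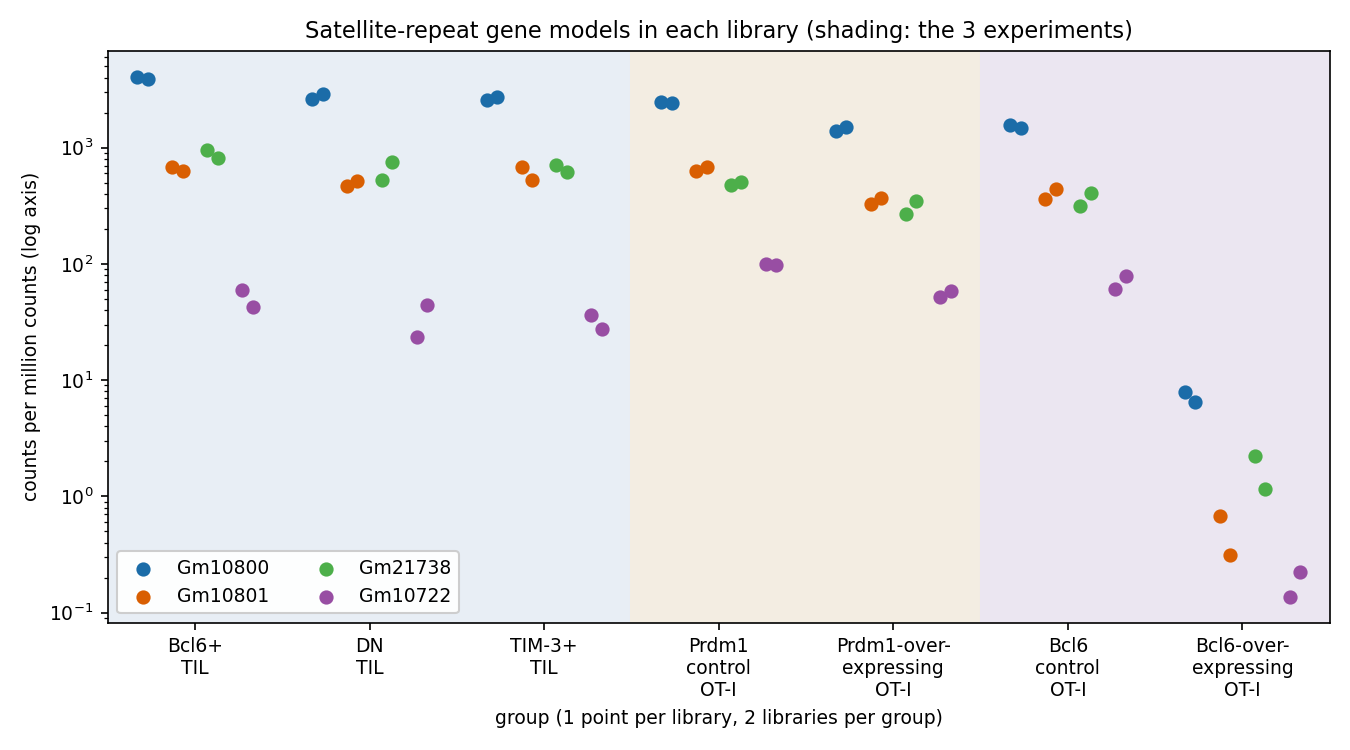
CPM (log axis) of the 4 models in each of the 14 libraries, 1 point per library and 2 libraries per group, with the experiments shaded. Gm10800 is the highest member in every library, and all 4 are lowest in Bcl6-overexpressing OT-I cells, where Gm10800 is at 7.97 and 6.54.

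In TILs, Gm10800, Gm21738 and the sum of the members were highest in Bcl6+ cells, the population marked by the reporter of Bcl6, whereas Gm10801 overlapped with TIM-3+ cells and Gm10722 with DN cells. Gm10800, the most abundant of them, had 4075 and 3914 CPM in Bcl6+ cells (3994 ± 114, SD, n = 2), 2601 and 2888 in DN cells (2744 ± 203) and 2570 and 2728 in TIM-3+ cells (2649 ± 112). Both Bcl6+ libraries thus lay above all 4 other TIL libraries, while DN and TIM-3+ cells overlapped. Gm21738, on chromosome 14, had 956 and 808 CPM in Bcl6+ cells, 526 and 751 in DN cells and 705 and 619 in TIM-3+ cells. It gave the same order, with the Bcl6+ libraries highest and the others overlapping, but its DN libraries differed more from each other than the DN and TIM-3+ means did.

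Gm10801, the chromosome 2 neighbour of Gm10800, behaved otherwise in TIM-3+ cells. It had 681 and 633 CPM in Bcl6+ cells, 465 and 512 in DN cells and 683 and 526 in TIM-3+ cells. Here the TIM-3+ libraries spanned the Bcl6+ ones and lay above both DN libraries. Gm10722, the rarest member and the one with the most sequence in common with other genes, had 59.9 and 42.9 CPM in Bcl6+ cells, 23.3 and 44 in DN cells and 36.4 and 27.4 in TIM-3+ cells. Its Bcl6+ libraries were above the TIM-3+ ones, but 1 DN library exceeded 1 Bcl6+ library.

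Summed, the members took 0.577% and 0.54% of all counts in Bcl6+ cells, 0.362% and 0.419% in DN cells and 0.399% and 0.39% in TIM-3+ cells. The means were 0.558% ± 0.0264 (SD, n = 2), 0.39% ± 0.041 and 0.395% ± 0.00663. The exact 95% binomial intervals, which cover counting error only, were narrow beside these differences, for example 0.574% to 0.58% in the first Bcl6+ library. Of summed FPKM, the members held a larger part, 2.83% and 3.02% in Bcl6+ cells, 1.82% and 2.11% in DN cells and 1.94% and 2.01% in TIM-3+ cells. As a share of counts, both TIM-3+ libraries lay between the 2 DN libraries.

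Against TIM-3+ cells, the sum in Bcl6+ cells had a fitted log2 fold change of 0.32 (SE 0.06) in edgeR's model with TMM scaling. Gm10722 was at 0.51 (SE 0.27), Gm10800 at 0.41 (SE 0.05), Gm21738 at 0.23 (SE 0.13) and Gm10801 at -0.06 (SE 0.10). With scaling by total counts, the median of all genes moved from 0.01 to 0.20 and the sum to 0.51, and Gm10801 turned to 0.13. Without the first Bcl6+ library Gm10722 was at 0.25 and Gm21738 at 0.11, without the second TIM-3+ library they were at 0.32 and 0.15, and Gm21738 was at 0.35 without the second Bcl6+ library. Of the 4 members, 3 had Bcl6+ libraries wholly above the TIM-3+ ones, which in this comparison was so for 48.1% of the 9748 genes tested, a share the members' count has to be read against. By edgeR's test with Benjamini-Hochberg adjustment, 38.6% of those genes differed, 1857 higher and 1907 lower.

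Against DN cells, the sum in Bcl6+ cells was at 0.5 (SE 0.06) on the log2 scale. Gm10722 was at 0.59 (SE 0.27), Gm10800 at 0.52 (SE 0.05), Gm21738 at 0.45 (SE 0.13) and Gm10801 at 0.41 (SE 0.10). Each kept this sign in the 9 alternatives run for it, and the sum ranged from 0.4 to 0.61. Single libraries moved the smaller members more: Gm10722 was at 0.21 without the first DN library and 1.13 without the second, and 0.33 without the first Bcl6+ library, and Gm21738 was at 0.22 and 0.73 without the first and second DN library. The groups did not overlap for 3 members, the exception being Gm10722, and 28.7% of all genes tested had Bcl6+ libraries wholly above DN ones. In this comparison 14.2% of genes differed by edgeR's test (633 higher, 750 lower), 736 genes in all without the first DN library and 773 without the second.

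Between TIM-3+ and DN cells the sum had a fitted log2 fold change of 0.18 (SE 0.06), which kept its sign in the 9 alternatives. With scaling by total counts it was 0.012, and the median of all genes moved from -0.01 to -0.18. Gm10801 was the only member whose libraries did not overlap, at 0.47 (SE 0.10), and TIM-3+ libraries lay wholly above DN ones for 20.7% of the genes tested. Gm21738 was at 0.22 (SE 0.13), Gm10800 at 0.11 (SE 0.05) and Gm10722 at 0.09 (SE 0.27), and each of these changed sign in at least 1 alternative. Of all genes, 28.2% differed by edgeR's test, 1454 higher and 1291 lower (with total counts 861 and 2217). The 3 TIL comparisons share their libraries, so none is independent of the others.

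**Figure D2:**
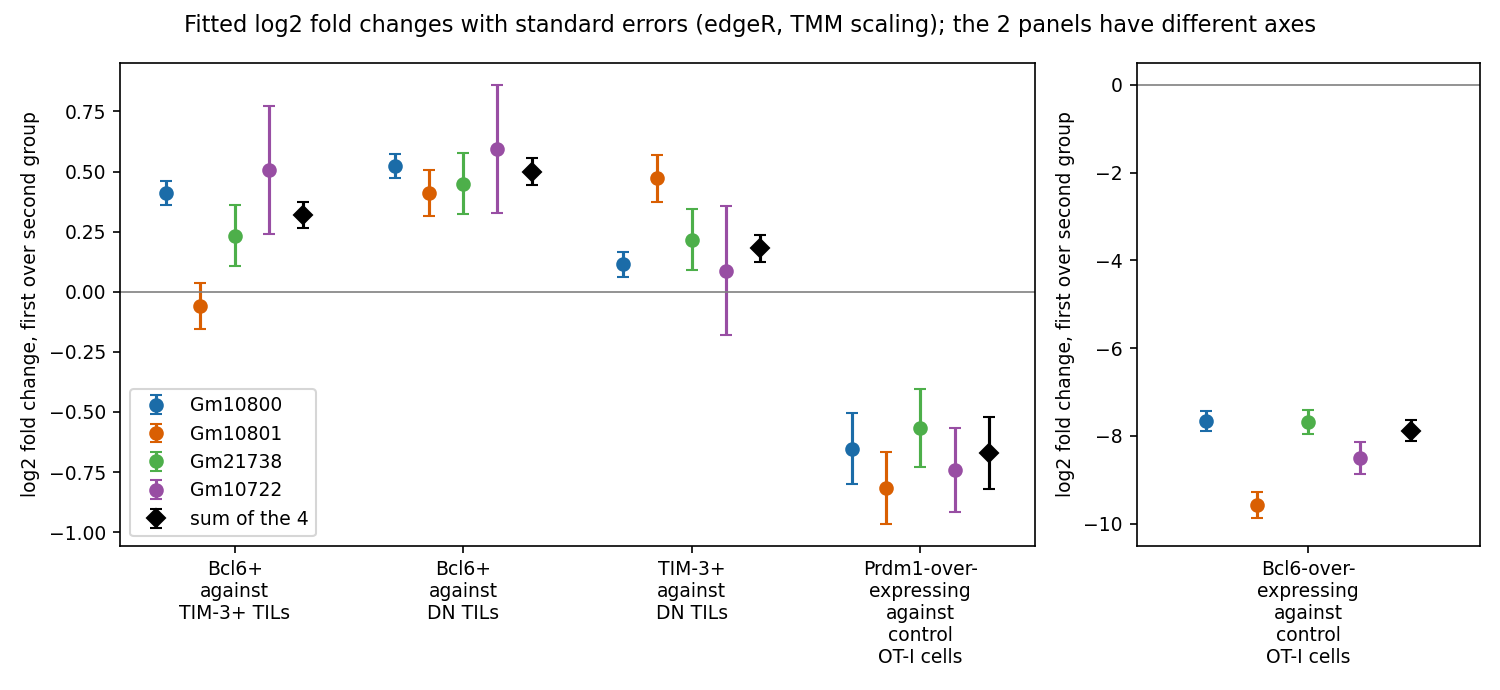
Fitted log2 fold changes (vertical axes, first over second group) with standard errors of the 4 models and their sum in the 5 comparisons, on separate axes for the comparison of Bcl6-overexpressing cells. Values lie between -0.82 and 0.59 on the left, and between -9.58 and -7.66 on the right.

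Other measures also differed between the TIL groups, some of them along with the members and some not. The first of them is a list chosen after the counts were seen. The summed level of 538 sensory receptor genes (olfactory, vomeronasal and taste receptors, which T cells are not known to use) was 277 and 287 CPM in Bcl6+ cells, 210 and 228 in DN cells and 130 and 142 in TIM-3+ cells. The order of Bcl6+ over DN is that of the members, while DN over TIM-3+ is not. The 1 receptor gene tested was higher in Bcl6+ cells than in both others and lower in TIM-3+ cells relative to DN cells. Ribosomal protein genes had another order, 23767 and 25812 CPM in Bcl6+ cells, 34229 and 35540 in DN cells and 24383 and 25347 in TIM-3+ cells. Of 81 tested, Bcl6+ cells had 74 lower relative to DN cells, and 35 lower and 1 higher relative to TIM-3+ cells, while TIM-3+ cells had 55 lower relative to DN cells. Summed macrophage markers (all 5 present in each library) were 219 and 253 CPM in Bcl6+ cells, 133 and 136 in DN cells and 34.8 and 50.1 in TIM-3+ cells, and summed B cell markers stayed between 0.135 and 3.86 CPM. Summed stromal and endothelial markers were 87 and 113, 78.1 and 90.7, and 33.7 and 41.9 CPM in the same order of groups, dendritic cell markers 14.3 and 24.9, 47.4 and 60.8, and 42.7 and 43.6, and erythroid markers 35.3 and 39.2, 60.4 and 63.4, and 15.3 and 21.3. Pecam1 gave nearly all of the stromal and endothelial sum (83.5 and 109 CPM in Bcl6+ cells), with Col1a1, Col1a2 and Cdh5 each at or below 2.76 CPM. Xcr1 gave nearly all of the dendritic cell sum in TIM-3+ cells (42.4 and 39.9 CPM), where Siglech was at 0.045 and 2.33. Neutrophil markers stayed at or below 4.16 CPM and CD4 and Foxp3 together at or below 12 CPM. The part of these in the members' levels was not tested.

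In OT-I cells of the Prdm1 experiment, all 4 members were lower with overexpression of Prdm1. Gm10800 had 2490 and 2442 CPM in control cells (2466 ± 33.7, SD, n = 2) and 1403 and 1520 in overexpressing cells (1462 ± 82.3). Gm10801 had 630 and 676 CPM in control cells and 326 and 366 in overexpressing cells. Gm21738 had 479 and 503 against 271 and 349, and Gm10722 had 99.1 and 97.3 against 51.6 and 58. For each member, both control libraries were above both overexpressing libraries.

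The sum was 0.37% and 0.372% of counts in control cells and 0.205% and 0.229% in overexpressing cells (0.371% ± 0.00142 against 0.217% ± 0.017), and 2.09% and 2.21% against 1.17% and 1.44% of summed FPKM. Its fitted log2 fold change was -0.67 (SE 0.15), a fitted level 1.59 times as high in control cells. By unscaled mean CPM the sum was 1.71 times as high. Gm10801 had the largest difference, -0.82 (SE 0.15), followed by Gm10722 at -0.74 (SE 0.17), Gm10800 at -0.65 (SE 0.15) and Gm21738 at -0.57 (SE 0.16). Whether the members differed from each other was not tested. In the 9 alternatives the sum stayed between -0.79 and -0.64.

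That all 4 members were wholly lower stands beside 28.4% of the 9947 genes tested that were so. Few genes differed by edgeR's test in this comparison, 1.36% of those tested (115 higher and 20 lower), and that count moved with the libraries: 5 and 3 genes without the first or second control, 784 and 185 without the first or second overexpressing library. Among the fitted log2 fold changes of all genes, Gm10801 ranked 405 from the lowest, Gm10722 536, Gm10800 734 and Gm21738 989.

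Sensory receptor genes did not go along with the members here. Their sum over 1190 rows was 620 and 650 CPM in control cells and 714 and 760 in overexpressing cells, higher where the members were lower. Genes with a count above 0 numbered 18255 and 17648 in the controls, against 19301 and 19294. Of 7 receptor genes tested, edgeR called 1 higher. Ribosomal protein genes, by contrast, went with the members, at 10929 and 8487 CPM summed in control cells and 6444 and 3793 in overexpressing cells. EdgeR called 0 of the 80 tested (31 at an unadjusted p under 0.05, 19 by DESeq2 and 0 by limma), with a median log2 fold change of -0.63. With replicate number as a block, edgeR called 36 of them. Summed macrophage markers were also lower, at 133 and 229 CPM against 384 and 431 in control cells, with all 5 present. Lyz2 gave most of this sum (335 and 297 in control, 150 and 85.5 in overexpressing cells). Csf1r, Adgre1 and C1qa were lower too, while Cd68 overlapped (68.1 and 62.3, then 65.4 and 30.8). B cell markers were higher with overexpression, at 6.88 and 9.92 CPM in control and 11.4 and 14.6 in overexpressing cells. Dendritic cell markers were higher too (20.2 and 24.9 in control, 36.4 and 43.3 in overexpressing cells), mostly through Xcr1 (21 and 16.5, then 31.6 and 38). Stromal and endothelial markers overlapped (133 and 143 in control, 121 and 147 in overexpressing cells), with Pecam1 giving most of them (71.8 and 92, then 66.5 and 89.3). Erythroid, neutrophil and CD4 T cell markers were at or below 4.84 CPM. The part of any of these in the members' levels was not tested.

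In the Bcl6 experiment the overexpressing libraries differed from the 6 other OT-I libraries in many ways, apart from the members. They held 13316 and 13165 genes with a count above 0, against 15121 and 15147 in their controls. Sparc, Ibsp and Chad, genes of bone and cartilage matrix, had 249 and 275, 128 and 150, and 95 and 128 counts in the control libraries and 0 or 1 in the overexpressing ones, while all 4 libraries of the Prdm1 experiment held 123 to 366 of each. Ribosomal protein genes summed to 10426 and 8785 CPM in control cells and to 55411 and 48904 with overexpression, and 78 of 81 tested were higher and 1 lower by edgeR's test. Sensory receptor genes summed to 249 and 256 CPM over 262 rows in control cells, with 12 and 8 rows at 0. In overexpressing cells they summed to 32.8 and 36.2 CPM, with 228 and 231 rows at 0. No row of this table had fewer than 20 counts summed over its libraries, against a minimum of 0 in the Prdm1 table. A gene could thus enter it through the control libraries alone, which limits the counts of rows at 0 and of genes above 0. In the fit, 3 of the receptor genes were tested and edgeR called 0 (1 at an unadjusted p under 0.05, 1 by DESeq2 and 1 by limma). Lars2, whose row is known to gather ribosomal RNA reads, was at 67.8 and 81 CPM against 1396 and 1693. Summed macrophage markers were 125 and 127 CPM in control and 536 and 479 in overexpressing cells. Neutrophil markers were 3.21 and 1.07 against 26.8 and 27.7, and erythroid markers 0.987 and 1.22 against 14.3 and 12.8. S100a8, S100a9, Hba-a1 and Hbb-bs were higher, while Csf3r (2.81 and 1.07 against 3.37 and 1.79) and Alas2 (0.987 and 1.22 against 0.82 and 1.52) overlapped. Summed stromal and endothelial markers (108 and 122 against 61.8 and 67) and dendritic cell markers (20.3 and 19.5 against 8.7 and 8.2) were lower along with the members. Pecam1 gave most of the former sum (77.7 and 81.9 against 60.3 and 65.9 CPM), and Col1a1, Col1a2 and Cdh5 were lower too. Xcr1 gave most of the latter in control cells (16.7 and 16.5 against 3.92 and 5.78). Siglech went the other way (1.43 and 0.34 against 2.37 and 2.02), while Flt3 and Clec9a overlapped. B cell and CD4 T cell markers stayed at or below 6.56 CPM. The part of these in the members' levels was not tested. What differed between the groups besides Bcl6, such as RNA amount or library preparation, is not given in the sources used here, so overexpression and such differences cannot be told apart.

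The members were nearly lost from the Bcl6-overexpressing libraries. Gm10800 had 31991 and 30084 counts in control cells and 175 and 146 in overexpressing cells. Gm10801 had 7295 and 9052 against 15 and 7, and Gm21738 had 6421 and 8463 against 49 and 26. Gm10722 had 1232 and 1634 against 3 and 5. No overexpressing library came near a control library for any member, although totals were slightly larger in the overexpressing libraries.

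Summed, the members made up 0.232% and 0.239% of counts in control cells, 2355 ± 53.4 CPM (SD, n = 2), and 11 and 8.24 CPM in overexpressing cells, 9.63 ± 1.96. Pooled over the 2 libraries of each group, the sum was 245 times as high in control cells, with an exact 95% interval of 223 to 270 for counting error only. The pooled ratio was 210 (188 to 235) for Gm10800, 215 (172 to 274) for Gm21738, 389 (197 to 901) for Gm10722 and 806 (532 to 1286) for Gm10801. In edgeR's fit the sum was at -7.88 (SE 0.24) on the log2 scale. Gm10801 had the lowest value, at -9.58 (SE 0.3), then Gm10722 at -8.5 (SE 0.37), while Gm21738 at -7.68 (SE 0.28) and Gm10800 at -7.66 (SE 0.23) were close in value.

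Leaving out either overexpressing library moved the sum to -8.13 or -7.68. The 4 members were wholly lower in overexpressing cells, as were 40.4% of the 9669 genes tested, and 48.8% differed by edgeR's test (2459 higher, 2261 lower). The contrast chose the members, so nothing is read from that count, but the sizes can be placed: 16 genes had a fitted log2 fold change below -5, and the members were at positions 3, 7, 9 and 10 from the lowest. Of the 16, 12 were satellite models, namely the 4 members and 8 that share words with them. The others were Sparc, Ibsp, Chad and Ssxa1 (named after their values were seen). Only the 9669 genes that passed the FPKM filter were ranked, and control libraries alone could carry a gene past it. Gm17535 averaged 5.16 FPKM in control and 0 in overexpressing cells. Only 3 of 262 sensory receptor rows were ranked. In the overexpressing libraries 228 and 231 of these rows were at 0, against 12 and 8 in controls. Such rows could enter the table through the control libraries alone, so no conclusion is drawn from them. Whether so large a loss was particular to satellite models was therefore not tested.

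The 8 other models with a row showed the same contrast with fewer counts. Gm10717 had 899 and 1089 counts in control cells and 10 and 11 in overexpressing cells, and Gm11168 had 544 and 628 against 5 and 3. Gm10718 had 615 and 907 against 1 and 1, and Gm10719 had 553 and 889 against 1 and 2. Gm10721 (161 and 150 against 2 and 1), Gm10720 (138 and 166 against 1 and 0) and Gm10715 (61 and 104 against 0 and 1) were rarer. Gm17535 had 76 and 78 against 0 and 0, which makes it at least 55.7-fold higher in control cells with a floor of 3 counts over the group. Summed over the 8 models, the pooled ratio was 196 (143 to 276), and its interval overlapped that of the members.

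**Figure D3:**
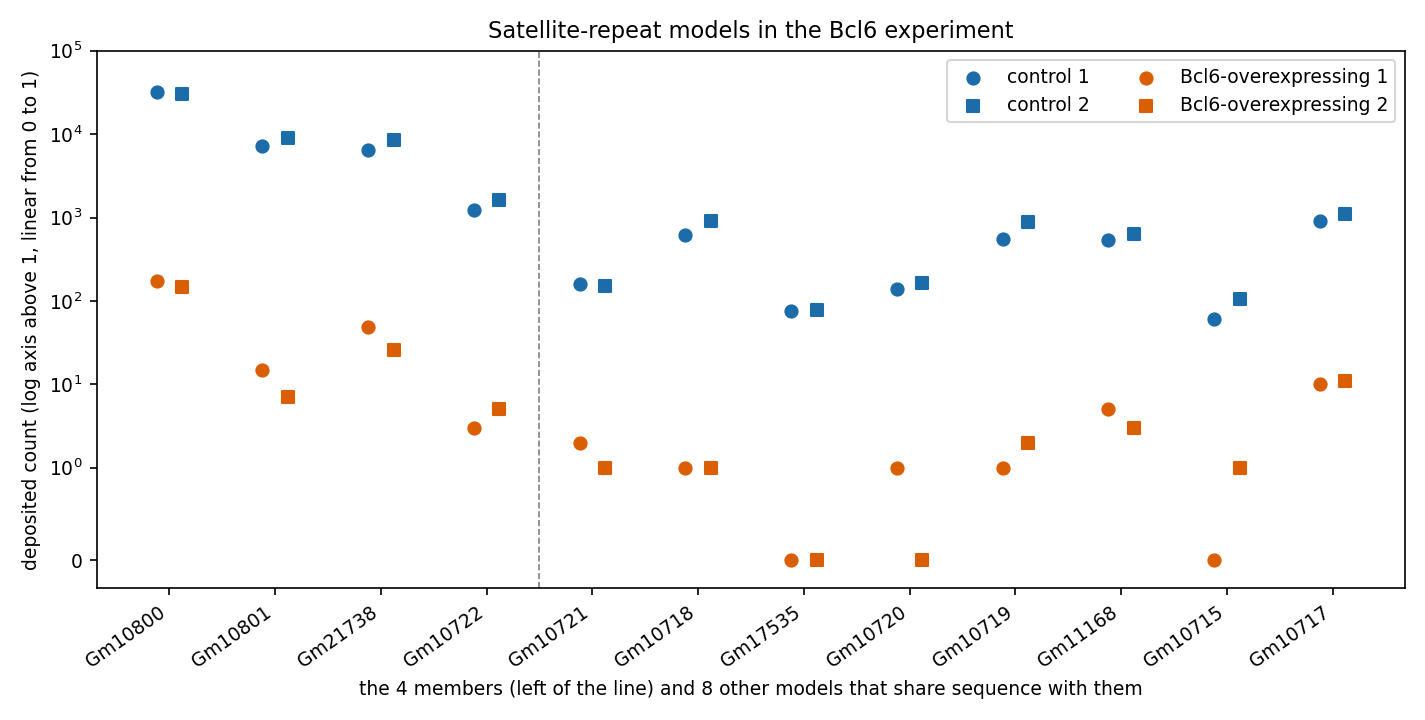
Deposited counts (vertical axis, logarithmic above 1) of the 4 members, left of the dashed line, and of 8 other models that share sequence with them, in the 4 libraries of the Bcl6 experiment. For each model both control libraries lie above both overexpressing libraries, down to 0 for Gm17535.

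In the Prdm1 experiment, the 8 models summed to 4506 and 4414 counts in control cells and 2412 and 2897 in overexpressing cells. Of the 8, 7 were wholly lower in overexpressing cells, as were 28.4% of all genes tested there, the exception being Gm17535 (4.91 against 4.38 CPM on average). Gm10717, at 76.3 against 42.3 CPM on average, had the largest of these differences at -0.75 (SE 0.21) on the log2 scale. In TILs, 5 of the 8 passed the filter, Gm10717, Gm11168, Gm10719, Gm10718 and Gm10720, and all 5 were wholly higher in Bcl6+ cells than in TIM-3+ and in DN cells, as were 48.1% and 28.7% of all genes tested. Gm10717 had 64.6 CPM on average in Bcl6+ cells against 41.1 in DN and 41.2 in TIM-3+ cells. The other 3, Gm10721, Gm17535 and Gm10715, had means under 1 CPM in each TIL group, and their groups overlapped in the comparisons with Bcl6+ cells.

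The counts were divided among the members as follows. Gm10800 took 64.3% to 72.5% of the summed member counts in the 6 TIL libraries and 61.1% to 68.4% in the 6 OT-I libraries other than the Bcl6-overexpressing ones. Gm21738 took 14.6% to 17.9% and 13% to 17.2%, and Gm10801 took 11.7% to 17.1% and 15.5% to 18.4%. Gm10722 took 0.644% to 1.05% in TILs and 2.51% to 3.32% in those OT-I libraries, with no overlap. In Bcl6-overexpressing cells the shares were 72.3% and 79.3% for Gm10800 and 6.2% and 3.8% for Gm10801, from 242 and 184 counts in all.

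**Figure D4:**
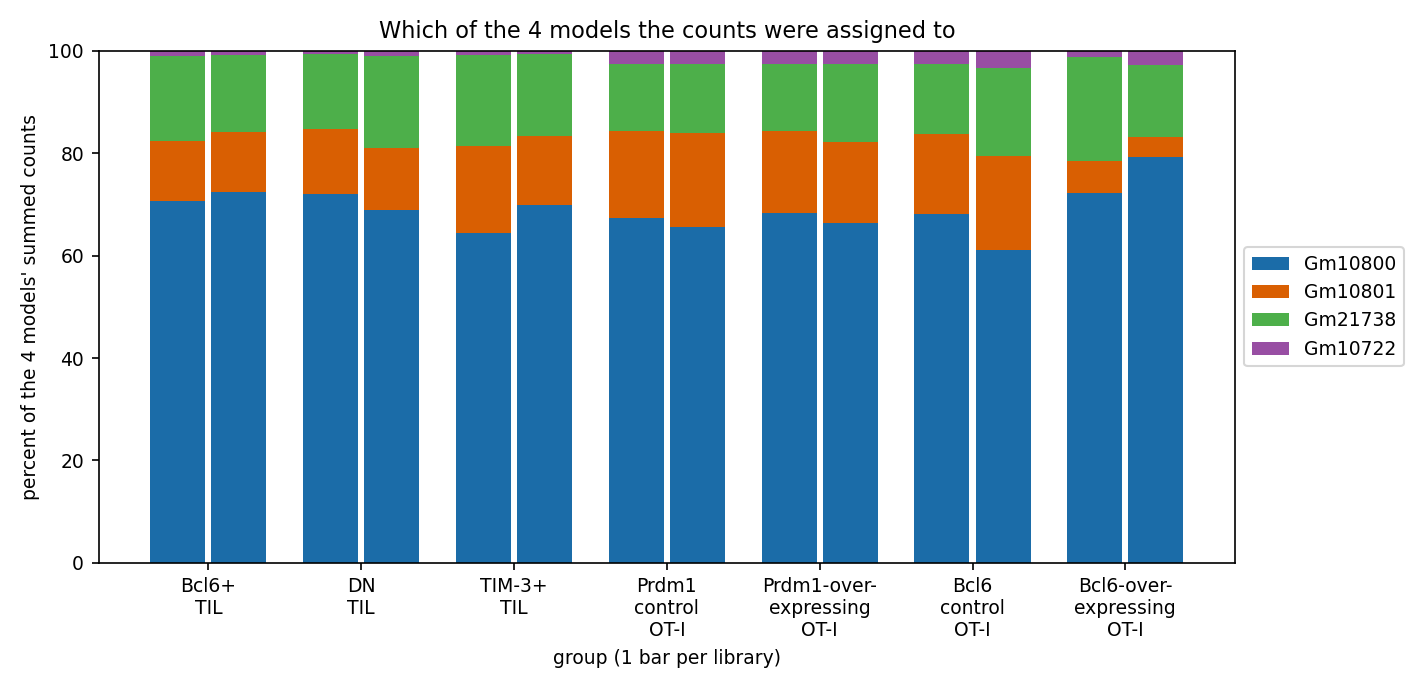
Share of the members' summed counts (vertical axis, percent) assigned to each of the 4 models, 1 bar per library. Gm10800 takes 61.1% to 79.3% throughout, and the share of Gm10722 is at most 1.05% in TIL libraries and at least 1.24% in OT-I libraries.

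The other chromosome 9 models followed Gm10722 in this. For each 100 counts of the members, the 8 models together had 1.68 to 2.14 in TILs and 6.13 to 8.15 in the Prdm1 and Bcl6 experiments outside the Bcl6-overexpressing libraries, where they had 8.26 and 10.3. The submitters' processing notes name Bowtie2 for the TIL reads and HISAT2 for the OT-I reads, and the tables were made separately, so aligner and cells cannot be told apart in that difference.

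Among 10737 genes measured in all experiments and outside the repeat family, those with the pattern most like the summed members over the 14 libraries, with the mean of each experiment removed, were Pdia6 (Pearson r of log2 CPM 0.98), Rabl3 (0.97), Fuca2 (0.97), Nmd3 (0.96), Pls1 (0.96), Calu (0.96), Ywhaz (0.95), Cers5 (0.95), Snx4 (0.95) and Tmem209 (0.95). These values rest largely on the Bcl6 experiment. Without it, in an alternative chosen after seeing the data, only Pdia6, a protein disulfide isomerase of the endoplasmic reticulum, stayed above 0.8, at 0.85 over 10 libraries. The others lay lower: Rabl3 had 0.09, Cers5 -0.16 and Tmem209 -0.12. In the Bcl6 experiment Pdia6 went from 13687 and 13563 counts to 8438 and 9304, a far smaller step than that of the members. Among the repeat models, measured the same way over the 10 libraries, Gm10717 had 0.97, Gm11168 0.91 and Gm10718 0.89, while Gm17535 had 0.43. Libraries share depth and preparation within an experiment, so these coefficients are descriptive.

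**Figure D5:**
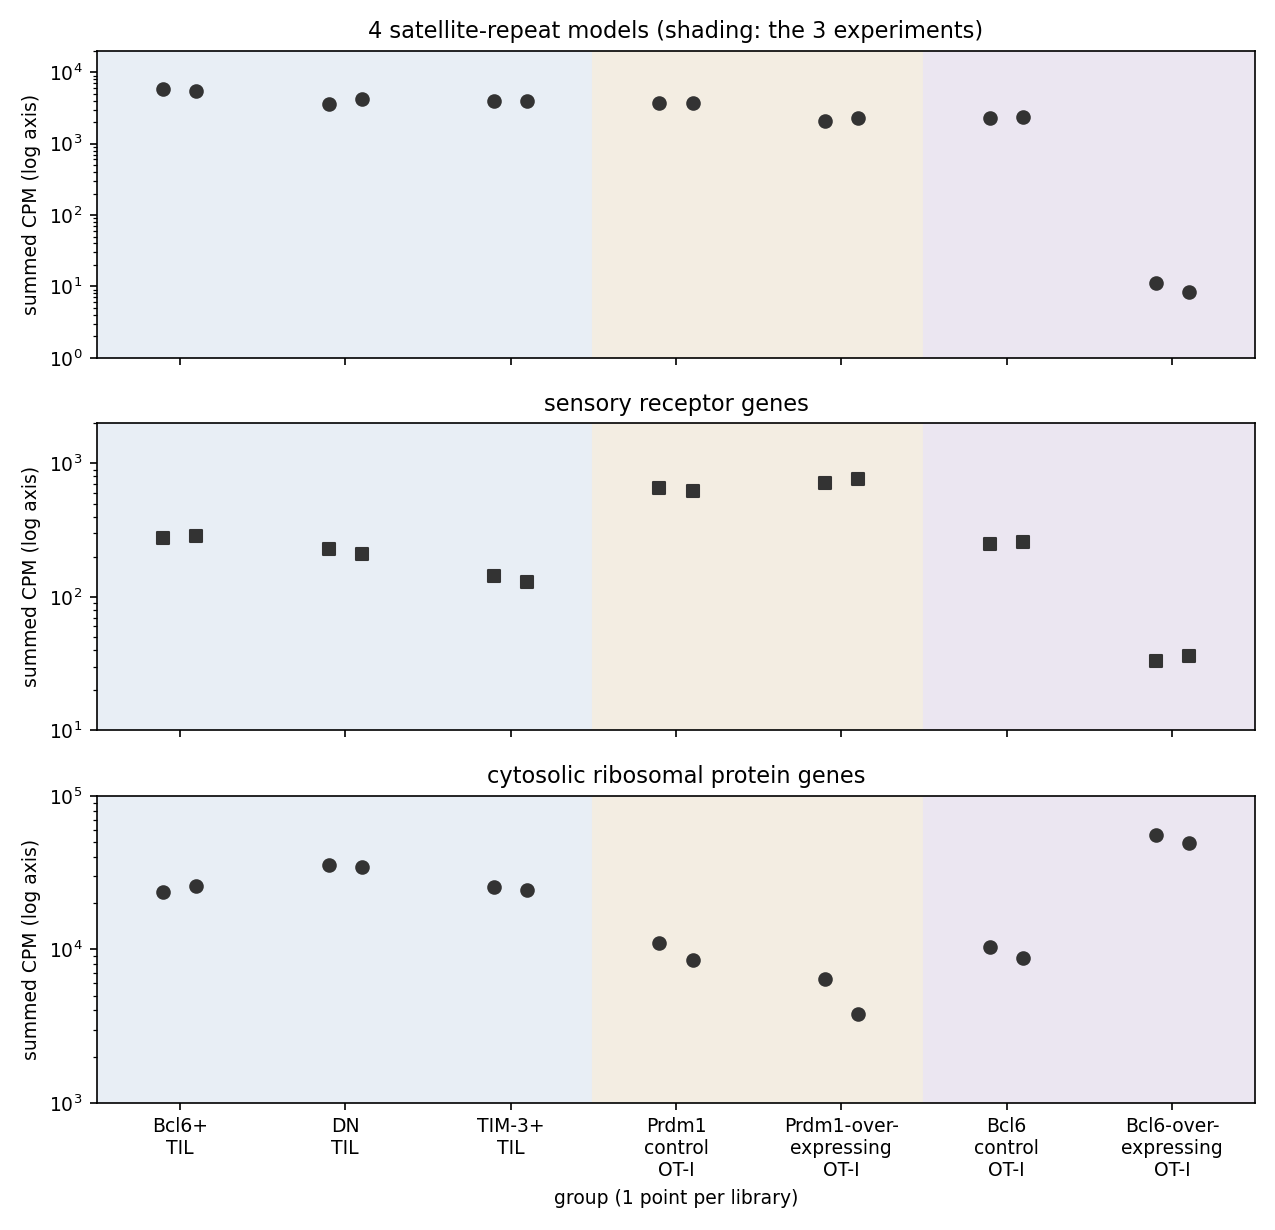
Summed CPM (log axes) of the 4 models, of sensory receptor genes and of cytosolic ribosomal protein genes in each of the 14 libraries, with the experiments shaded. In Bcl6-overexpressing cells the models and the sensory receptor genes are lowest, at most 11 and 36.2 CPM, and ribosomal protein genes are highest, at least 48904 CPM. The receptor sums cover 538, 1190 and 262 rows in the TIL, Prdm1 and Bcl6 experiments, so they can be compared only within an experiment.

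Genes that act on satellite repeats were followed through lists. Pericentromeric heterochromatin genes, which encode the enzymes and readers of histone and DNA methylation, were divided where the members differed in TILs: of 30 tested, 4 were higher and 10 lower in Bcl6+ than in TIM-3+ cells (median log2 fold change -0.08, against 0.01 over all genes). Uhrf1, which guides maintenance DNA methylation, fell by 1.44 (edgeR adjusted p = 2.2e-07) and Dnmt1, the maintenance methyltransferase, fell by 1.07 (3e-07), whereas Atrx, a remodeller that deposits histone H3.3 in heterochromatin, rose by 0.49 (8.5e-05). Against DN cells, 2 of 30 were higher (Atrx by 0.36, adjusted p = 0.0033, and Atf7ip by 0.28, 0.033) and 1 lower (Dnmt1 fell by 0.3, 0.033). In TIM-3+ relative to DN cells, 8 were higher and 1 lower.

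Centromere and passenger complex genes, which mark centromeres and guide chromosome segregation, were lower in Bcl6+ than in TIM-3+ cells for 13 of 14 (median -1.86), among them Birc5, which fell by 2.83, and Aurkb, the kinase of the complex, which fell by 2.4 (adjusted p = 6.6e-08 and 3.3e-08). Against DN cells 3 were lower, Birc5 and Aurkb among them, and in TIM-3+ relative to DN cells 13 were higher. Of 14 nuclear RNA decay genes, 2 were higher (Exosc5 and Zfc3h1) and 2 lower (Exosc8 and Xrn2) in Bcl6+ than in TIM-3+ cells. Against DN cells edgeR called 0 of them, with 2 at an unadjusted p under 0.05, 0 by DESeq2 and 0 by limma on log2(FPKM + 1). Of 11 genes for sensing double-stranded RNA, 2 were higher and 6 lower in Bcl6+ than in TIM-3+ cells, and 0 higher and 3 lower than in DN cells (Oas3, Zbp1 and Ddx58, which encodes RIG-I and fell by 0.65, adjusted p = 0.002).

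In the Prdm1 experiment edgeR called 0 of 30 heterochromatin, 14 centromere, 16 RNA decay and 12 double-stranded RNA sensing genes, with 3, 2, 1 and 1 at an unadjusted p under 0.05 and 0 in each list by DESeq2 and by limma. With replicate number as a block, edgeR called 3, 2, 0 and 1 of them. Without the block, the lowest p among heterochromatin genes was that of Cbx5, which encodes HP1 alpha, at -0.53 (SE 0.18, edgeR adjusted p = 0.18). In the Bcl6 experiment, 7 of 31 heterochromatin genes were higher and 6 lower, with Trim28, a corepressor of repeats, up by 1.09 (adjusted p = 2.7e-05) and Morc3 and Hells down at -1.25 and -1.27 (2.2e-05 and 3.9e-05). The medians of that list were -0.04 in this comparison and -0.03 in the Prdm1 experiment, against 0 and 0.02 over all genes. Of 14 centromere genes 2 were higher and 9 lower, of 16 RNA decay genes 3 and 6, and of 10 sensing genes 1 (Zbp1) and 3 (Ddx58, Mavs and Ifih1).

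Classes of RNA that differ in the poly(A) tail were looked up by symbol. Small noncoding RNAs without a poly(A) tail and nuclear long noncoding RNAs had 0 rows in the tables, in which 15234 of 15315, 19398 of 19548 and 14951 of 15028 annotated symbols are protein coding. Replication-dependent histone genes, whose messages lack a poly(A) tail, had 0 rows in the TIL table under their older or newer symbols. They summed to 59.1 and 54.6 CPM in Prdm1 control cells and 46.5 and 41 in overexpressing cells over 33 rows, where edgeR called 0 of 11 (1 at an unadjusted p under 0.05, 0 by DESeq2 and limma), and to 61.6 and 55.5 against 178 and 156 over 39 rows in the Bcl6 experiment, where 23 of 30 were higher. Mitochondrial messages were higher for 9 of 13 with Bcl6 overexpression. Their sums overlapped, at 5375 and 5091 CPM in control and 5172 and 9327 in overexpressing cells. With Prdm1 overexpression edgeR called 0 of 13 (2 at an unadjusted p under 0.05, 0 by DESeq2 and limma, 4 with replicate number as a block). In TILs, 3 of 13 were higher in Bcl6+ than in TIM-3+ cells, 3 lower than in DN cells, and 7 lower in TIM-3+ relative to DN cells. Lars2 was not called in Bcl6+ against TIM-3+ cells (adjusted p = 0.84) and was lower in Bcl6+ and in TIM-3+ cells against DN cells, at -0.19 and -0.17 (edgeR adjusted p = 0.028 and 0.026). With Prdm1 overexpression it was at -1.02 (edgeR adjusted p = 0.10, but called by DESeq2 and by edgeR with the block, and not by limma). With Bcl6 overexpression it was at 4.43 (edgeR adjusted p = 6.3e-13).

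Base composition and length moved with the fold change of all genes in the Bcl6 experiment. The 20% of genes with the lowest G and C, up to 43.7%, had a median log2 fold change of -0.55 and the 20% with the highest, 0.61. The shortest 20%, up to 1899 bases in the longest transcript, had a median of 0.67. The members, with 34.33% to 35.91% G and C, belong to the first of these and, with 504 to 681 exon bases, also to the last. In the Prdm1 experiment the 20% lowest in G and C had a median of 0.19 and the shortest 20% -0.13, and in the TIL comparisons both medians lay between -0.10 and 0.03. The part of composition or length in the members' values was not tested.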

How the data were processed

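RNA sequencing libraries of mouse CD8 T cells were analysed from the deposited count per gene and FPKM value (fragments scaled to exon length and library total) of each library. The labels give total RNA extracted with Trizol. The sources used here do not give RNA selection or strand. Per the submitters' processing notes, TIL reads went through Bowtie2, Subread and featureCounts and OT-I reads through HISAT2, featureCounts and RSEM, on mm10, and the roles of the tools are not stated. Tables hold one row per gene symbol, with 15319, 19825 and 15216 genes. The smallest count of a row, summed over the libraries of its table, was 20, 0 and 20.

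Counts were fitted per experiment with edgeR 4.0.16 (quasi-likelihood, TMM scaling, mean FPKM of at least 1, two-sided, Benjamini-Hochberg threshold 0.05), limma 3.58.1 and DESeq2 1.42.0 in R 4.3.3. The fits were tested on simulated data. The biological coefficient of variation was 0.149, 0.227 and 0.164 in the TIL, Prdm1 and Bcl6 experiments. Because p-values rest on 2 libraries per group, they measure only the spread between those. Members and gene lists were chosen with earlier results of these data known, and sensory receptor and ribosomal protein lists after the counts were seen. Named genes are the members, the 10 genes whose log2(CPM + 1) correlated best with the members' sum, and up to 4 genes per list with the smallest p. Related models share a 31-base word with the members. Alternatives covered scaling, tool, unit, filter, a replicate block and leaving out each library.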

Additional observations from a re-analysis of the deposited data

How the results depend on the processing

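The sum of the members kept its sign in each of the 9 alternatives run per comparison. For Bcl6+ against TIM-3+ TILs, where the log2 fold change was 0.32, it was 0.51 with total counts, 0.24 with limma on log2(FPKM + 1) and 0.50 for the difference of log2(CPM + 1) means. For TIM-3+ against DN TILs, 0.18 became 0.012 with total counts and 0.020 with log2(CPM + 1) means. With total counts the median of all genes in that comparison moved from -0.01 to -0.18. For Prdm1 overexpression, -0.67 became -0.77 with total counts, -0.78 with limma and -0.77 with log2(CPM + 1) means. Leaving out 1 library gave 0.079 to 0.29 for TIM-3+ against DN, -0.79 to -0.64 for Prdm1 overexpression and -8.13 to -7.68 for Bcl6 overexpression. The cause was not tested. Single members changed sign where they were near 0. Gm10801 in Bcl6+ against TIM-3+ cells went from -0.06 to 0.13 with total counts, 0.14 without the first TIM-3+ library and 0.13 with log2(CPM + 1) means, and ranged from -0.23 to 0.14 without 1 library. In TIM-3+ against DN cells, Gm10800 went from 0.11 to -0.055 with total counts and -0.050 with log2(CPM + 1) means, Gm21738 from 0.22 to -0.015 without the first DN library, and Gm10722 from 0.09 to -0.080 with total counts, -0.019 with log2(CPM + 1) means, -0.30 without the first DN library (0.62 without the second) and -0.13 without the first TIM-3+ library.

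The count of genes called was 736 to 1180 without 1 library for Bcl6+ against DN (1383 with all) and 1700 to 2210 for TIM-3+ against DN (2745 with all). For Prdm1 overexpression (135), it was 275 with DESeq2 size factors, 294 with total counts, 44 with no filter, 586 with DESeq2 and 3 to 784 without 1 library. With the replicate block it was 1659, against 3721, 1360 and 2688 in the TIL comparisons and 4621 for Bcl6 overexpression. Among the gene lists with Prdm1 overexpression, the block called 3 heterochromatin, 2 centromere, 1 double-stranded RNA sensing, 36 ribosomal protein and 4 mitochondrial genes and Lars2. Without the block edgeR called 0 in these lists, while DESeq2 called 19 ribosomal protein genes and Lars2. The share of calls that were higher in Bcl6+ than in TIM-3+ cells was 49.3% and became 69.9% with total counts, and for TIM-3+ against DN it went from 53% to 28%, and for Prdm1 overexpression from 85.2% to 69.5% with DESeq2 size factors, 59.2% with total counts, 60.4% with the block and 75% with no filter. The labels do not say what libraries with equal replicate numbers share. Deviations of same-numbered libraries from their group means correlated at 0.28 in the Prdm1 experiment, at -0.055 in the Bcl6 experiment and between 0.015 and 0.036 in TILs. Whether such libraries came from the same host or preparation was not tested. Among the likeness coefficients, those of Cers5 and Tmem209 turned to -0.16 and -0.12 without the Bcl6 experiment. Gm10722, at 3 and 5 counts in Bcl6-overexpressing cells, and Gm10801, at 15 and 7, are limited by depth.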
